A study of Mus musculus with 4 samples.

Results

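The GADD45 and p53 growth-arrest genes described here are 8 named genes: Gadd45a, Gadd45b, Gadd45g, Trp53, Trp53inp1, Mdm2, Cdkn1a and Ccng1. They were taken by gene name from the spots other than controls, and all their probes were kept in view, which gave 13 probes on 40 spots among 41174 probes under 27962 names on the array. The study compared mouse oocytes exposed to a hydrostatic pressure of 20 MPa for 60 min at 37 °C with control oocytes that were handled alike but not pressurised. Each of 4 two-colour arrays carried 1 treated pool of 50 oocytes in the red (Cy5) channel and 1 control pool of 50 oocytes in the green (Cy3) channel, and the submitters call the 4 pairs biological replicates. Dye and treatment were not separated, because every array ran the same way round. Strain, age and meiotic stage of the oocytes are not given in the sources used here.

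p53, the product of Trp53, is a transcription factor that accumulates when DNA is damaged or a cell is otherwise stressed. It switches on genes that halt the cell cycle, among them Cdkn1a, Gadd45a and Ccng1, and also Mdm2, whose product marks p53 for destruction and so closes a feedback loop. The 3 GADD45 proteins are small stress-inducible proteins that bind cell cycle and stress kinase partners. Fully grown oocytes transcribe little and draw on stored mRNA.

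The results turn on 6 of the probes, and their letters are shown so that each value can be tied to the stretch of transcript that it reports. The probes of Mdm2 and Trp53 that were each printed on 10 spots are given whole; they are held to be protein-coding from general knowledge of these genes, and no annotation of the build was used. For 3 others the first 30 of 60 bases are given, and for the second Trp53inp1 probe the unit in capitals, which is the stretch of 26 bases with which it begins and which it then repeats. All are as in the deposited files, 5′ to 3′.
Trp53 A_52_P491849: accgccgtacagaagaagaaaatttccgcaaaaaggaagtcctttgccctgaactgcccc
Trp53 A_52_P781398: gcattcaggccctcatcctcctccttccca
Trp53inp1 A_51_P175580: gtgtgtttatgggcacaatgttttctctca
Trp53inp1 A_52_P503387: AGTACTAATACTTACCACAGCAGGCG
Gadd45a A_51_P296608: aagggacaaaaactacaaagcactgcaaga
Mdm2 A_51_P201346: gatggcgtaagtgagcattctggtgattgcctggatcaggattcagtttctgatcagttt

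On build mm7 the Trp53 probes lie on the plus strand of chromosome 11, A_52_P491849 at 69671206 to 69671265 and A_52_P781398 at 69662031 to 69662089, with 9116 bases between them. The Trp53inp1 probes lie on chromosome 4, A_51_P175580 at 11101174 to 11101233 and A_52_P503387 at 11098180 to 11098239, both on the plus strand. The Gadd45a probe A_51_P296608 lies at 67017167 to 67017226 on the minus strand of chromosome 6, and the Mdm2 probe A_51_P201346 at 117204040 to 117204099 on the minus strand of chromosome 10. In A_52_P503387, 33 of the 34 bases that can be compared equal the base 26 positions further on, and no other probe on the array holds its first 26 bases.

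On these arrays 3 of the 8 genes were measured well enough to be tested: Trp53, its target Trp53inp1 and Gadd45a. A probe was tested if the scanner software's own flag put it well above background in 1 channel on 3 or more of the 4 arrays. The 4 probes that met this were A_51_P296608 of Gadd45a, both probes of Trp53 and A_51_P175580 of Trp53inp1. None of the 5 genes Gadd45b, Gadd45g, Mdm2, Cdkn1a and Ccng1 had such a probe. Over the 13 probes, 19 of 52 treated readings and 22 of 52 control readings were above background.

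**Figure D1:**
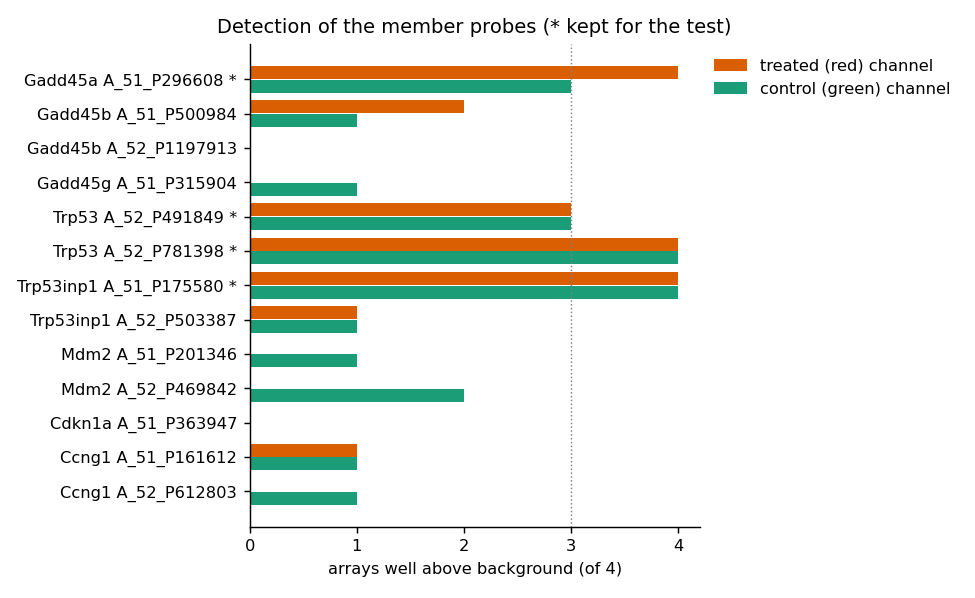
The bars give, for each of the 13 probes (rows), the number of arrays out of 4 that showed it well above background, with treated pools above control pools in each row, and the dotted line marks the minimum of 3. The 4 probes marked with an asterisk reach it, and A_51_P363947 of Cdkn1a and A_52_P1197913 of Gadd45b have no bar in either channel.

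Of the whole series, treated pools lit 7049 to 11155 of 43379 spots well above background and control pools 8309 to 10837, and 8108 probes were kept. Replicate 1 stood apart: its log2 ratios over all probes correlated at r = -0.19 to -0.15 with the other arrays, against 0.09 to 0.29 among the other 3, and the median ratio of treated to control brightness before normalization was 1.79 on it and 0.435 to 0.591 on the others. The labels put the treated pool in the red channel on every array and were followed. Whether the pools of replicate 1 were exchanged, which would turn the sign of each of its ratios, was not tested. Means without replicate 1, which do not depend on this, are given for the tested probes. Oocyte markers were present, with 8 of the 11 on the array kept, Gdf9, Bmp15 and Zp3 among them. Zp1, Zp2, Nlrp5 and Figla of that list of 12 had no kept probe, 3 of them being on the array and the other absent from it. Of 18 cumulus and granulosa markers 6 were kept, of 7 blood and immune markers 2, and of 10 markers of stroma, endothelium and epithelium 3. The cumulus marker Tnfaip6 had mean log2 signals of 10.35 in treated and 10.52 in control pools. That was above Zp3 (7.99 and 8.02) and below Gdf9 (15.07 and 14.60) and Bmp15 (14.53 and 14.14). Tnfaip6 was the brightest of the 6 kept markers of its list. The others had mean log2 signals of 6.09 to 7.32 in treated and 6.55 to 7.24 in control pools. No kept marker passed the test, and the median log2 ratios of the 4 marker lists were 0.02 for oocyte, -0.12 for cumulus and granulosa, -0.12 for blood and immune, and 0.16 for stromal, endothelial and epithelial genes. The blood and immune list held Hba-a1 at 0.28 and Srgn, a proteoglycan core protein of blood cells, at -0.52 ± 0.16 (SE, n = 4). Srgn was below 0 on 4 of 4 arrays (unadjusted p = 0.019, limma's adjusted p = 0.93), as was Trp53inp1 described below. So were the cumulus and granulosa marker Hsd17b1, at -0.65 with 0 treated pools above background, and 9.18% of all kept probes with 4 values. The widest marker departure was that of Acta2, on the stromal list, at 0.83 ± 0.43 (SE, n = 4). The part of Srgn in the Trp53inp1 result was not tested. Because loess centres the ratios of each array, they give a transcript's share relative to the other probes and not its amount per oocyte. Each pool is a bulk sample, so a change in all of its oocytes and a change in part of them cannot be told apart.

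The question is whether transcripts of the p53 and GADD45 genes differed after pressure. In limma's test of the log2 ratio of treated over control against 0, 0 of the 4 tested probes passed at an adjusted p of 0.05, higher or lower. Over all 8108 probes, 0% were called higher and 0% lower, with a lowest adjusted p of 0.93. Without adjustment 324 probes were under 0.05, 63 higher and 261 lower, and 1 of the 4 member probes was among the lower ones. Median centring of each array in place of loess moved the median of all kept probes to -0.32, against -0.02, and put 6504 of 8108 below 0, so values under it are to be read against that shift. The share of all kept probes under that unadjusted threshold toward lower values was 3.22%, and a count over 4 probes is too coarse to be set against it.

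Trp53inp1, a p53 target whose product promotes growth arrest, cell death and autophagy, was below 0 on 4 of 4 arrays by probe A_51_P175580, with the channels of replicate 1 taken as labelled. Its log2 ratios were -0.56, -2.04, -0.68 and -0.36 on replicates 1 to 4. In normalized log2 signal the treated pools had 9.39, 9.23, 7.90 and 9.54 and the control pools 9.95, 11.27, 8.57 and 9.90. The treated pool was thus the lower of its pair every time, while the ranges of the treated and control pools overlapped. The mean log2 ratio was -0.91 ± 0.32 (SE, n = 4), a fold of 0.532, with a 95% interval from -1.71 to -0.11. It did not pass (limma's adjusted p = 0.93, unadjusted p = 0.033). Of all kept probes with 4 values, 9.18% were likewise below 0 on every array. Replicate 2 carried much of the size, and without it the mean was -0.53. Without replicate 1 it was -1.02, with all 3 arrays below 0, and with median centring -1.50.

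In brightness as deposited, the same probe read 1371, 252, 90.7 and 537 in the treated channel of replicates 1 to 4, against 884, 2826, 467 and 1942 in the control channel. The treated channel was the brighter one on replicate 1 before normalization. The ratio on that array fell below 0 only after normalization. The median ratio of treated to control brightness over the kept probes there was 1.79.

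The second Trp53inp1 probe, A_52_P503387 with the repeated sequence, was mostly at background. On replicate 1, where its treated reading was above background, its normalized ratio had the opposite sign to that of the first. In brightness as deposited both probes were higher in the treated channel there, the second at 177 against 46.1. Its log2 ratios were 1.01, 0.04, -0.05 and -0.35. It was above background in 1 treated pool, that of replicate 1, and in 1 control pool, that of replicate 4. Its mean was 0.16 ± 0.59 (SD, n = 4), and without replicate 1 it was -0.12. The values of Trp53inp1 therefore rest on 1 probe.

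Trp53 itself, which encodes p53, was measured by both its probes. Probe A_52_P781398 had log2 ratios of -0.50, 0.18, 0.66 and 0.88 on replicates 1 to 4. Its normalized log2 signals were 7.73, 9.43, 8.44 and 9.17 in treated pools, against 8.22, 9.25, 7.78 and 8.29 in control pools. After normalization the treated pool was higher on 3 arrays and lower on replicate 1, and the ranges overlapped. Brightness as deposited was 331, 323, 145 and 411 in the treated channel and 236, 660, 259 and 581 in the control channel. On every array the sign of the ratio thus turned with normalization. The mean log2 ratio was 0.30 ± 0.27 (SE, n = 4), with a 95% interval from -0.38 to 0.98, and did not pass (limma's adjusted p = 0.93). Without replicate 1 it was 0.57 (limma's adjusted p = 0.49), and leaving out each array in turn gave 0.11 to 0.57. It was 0.48 with processed signals and -0.28 with median centring, near the shift of all probes.

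Probe A_52_P491849 of Trp53 gave the same order of arrays. Its log2 ratios, each a mean over 9 or 10 spots, were -0.17, 0.09, 0.12 and 0.49. The normalized log2 signals were 6.32, 6.70, 6.42 and 6.75 in treated pools and 6.48, 6.62, 6.31 and 6.25 in control pools. Both probes thus put replicate 1 lowest and replicate 4 highest. The mean was 0.13 ± 0.18 (SE, n = 4), with a 95% interval from -0.33 to 0.59 (limma's adjusted p = 0.95). It was 0.23 without replicate 1, 0.01 without replicate 4 and 0.84 with processed signals or the authors' values. This probe is dim: on replicate 3, 3 of 9 spots were above background for the treated pool and 2 of 9 for the control pool. Its brightness as deposited was 52.3, 63.3, 43.8 and 65.8 in the treated channel and 52.1, 65.8, 45.8 and 57.6 in the control channel. On replicates 1 to 3 the sign of its ratio differed from that of brightness as deposited, which includes background. For this probe background was 34.1 to 37.3 in the treated and 25.2 to 27.1 in the control channel. Whether background correction or normalization turned a sign was not tested.

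Gadd45a, which restrains the cell cycle at the entry into division and takes part in DNA repair and demethylation, had 1 probe. Its log2 ratios were 0.22, 0.05, -0.38 and 0.58 on replicates 1 to 4. The normalized log2 signals were 7.27, 6.49, 7.57 and 7.99 in treated pools, against 7.05, 6.44, 7.96 and 7.40 in control pools. Replicates 1, 2 and 4 lay above 0 and replicate 3 below, and the pools overlapped over most of their range. The mean was 0.12 ± 0.21 (SE, n = 4), a fold of 1.08, with a 95% interval from -0.42 to 0.65 (limma's adjusted p = 0.96). The mean was 0.08 without replicate 1, -0.04 without replicate 4 and 0.50 with processed signals. With median centring it was -0.29, near the shift of all probes. On replicate 2 the control channel was not well above background, with a brightness of 57.1 against 54.1 in the treated channel. On replicate 4 the treated channel was also the dimmer one before normalization, at 170 against 249.

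**Figure D2:**
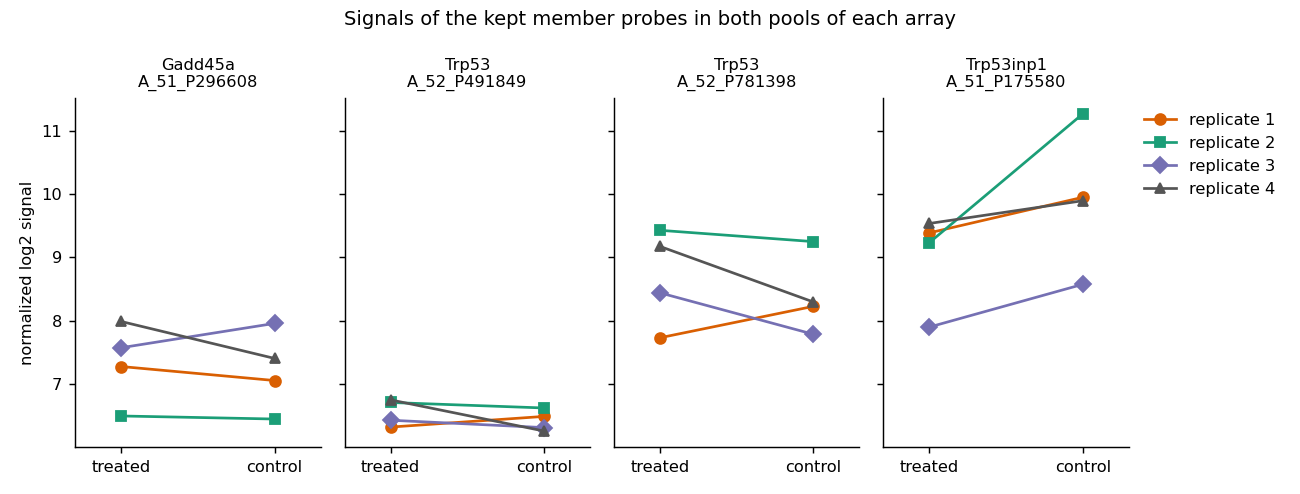
Each panel is 1 of the 4 tested probes, the vertical axis is the normalized log2 signal after loess and scaling between arrays, and each line joins the treated and the control pool of 1 array. All 4 lines of Trp53inp1 run up toward the control pool, whereas the lines of Gadd45a and Trp53 run in both directions.

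Among the 4 tested probes, 1 was below 0 and 0 were above 0 on all 4 arrays. Of all kept probes with 4 values, 3.04% were above 0 on every array. The sign of each of the 16 readings (4 probes on 4 arrays) was the same in the scanner software's processed signals. Those come from the same scans and are dye-normalized too, so this is not an independent check. Several of the 16 had the opposite sign in brightness as deposited, among them all 4 of Trp53 A_52_P781398.

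The other GADD45 genes stayed near the limit of detection. Gadd45b, a stress- and cytokine-induced relative of Gadd45a, was above background by probe A_51_P500984 in 2 treated pools and 1 control pool. Its log2 ratios were -0.01, 0.02, -0.44 and 0.32. The only array with both channels above background was replicate 3, where the brightness was 58.0 in the treated and 221 in the control channel. Probe A_52_P1197913 of Gadd45b was above background nowhere, with log2 ratios from -0.15 to 0.03. Gadd45g, the third GADD45 gene, was above background only in the control channel of replicate 4, and its log2 ratios ran from -0.25 to 0.09. Neither gene has a usable bound on a difference.

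Mdm2, the ubiquitin ligase that limits p53, did not rise well above background in a treated pool by either probe. Probe A_51_P201346, printed on 10 spots, had log2 ratios of -0.86, 0.00, 0.03 and 0.02 on replicates 1 to 4. On replicate 1, 9 of 10 spots were above background in the control channel and 0 of 10 in the treated channel, with a mean brightness of 39.8 in the treated and 73.15 in the control channel. On the other 3 arrays 0 spots were above background in either channel. The low value is thus shared by the spots of that array and was not seen on the others. The mean was -0.20 ± 0.44 (SD, n = 4), and 0.02 without replicate 1. Probe A_52_P469842 was above background in the control channel of 2 arrays, replicates 3 and 4, where its log2 ratios were -0.11 and -0.38, and had 0.01 and 0.00 on replicates 1 and 2. The probes thus had their lowest values on different arrays.

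Cdkn1a, the p21 inhibitor of cyclin-dependent kinases and the classical p53 target, was at background throughout. None of the 10 spots of A_51_P363947 was above background in either channel of any array. Its log2 ratios were 0.00, 0.01, 0.07 and 0.08, but both channels were at background, so they say nothing of the transcript. Brightness was 39.9 to 46.4 in the treated channel and 40.2 to 47.1 in the control channel. A level of p21 mRNA was not detectable on these arrays.

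Ccng1, cyclin G1, a p53 target that recruits a phosphatase to Mdm2, was read by a pair of dim probes. Probe A_51_P161612 had log2 ratios of 0.40, -0.005, -0.43 and 0.02, and was above background in the treated channel on replicate 1 and in the control channel on replicate 3. Its mean was -0.003 ± 0.34 (SD, n = 4), and -0.14 without replicate 1. Probe A_52_P612803 had -0.05, 0.03, 0.09 and -1.02, and was above background only in the control channel of replicate 4, at a brightness of 44.6 in the treated and 163 in the control channel. Its mean was -0.24 ± 0.53 (SD, n = 4), and 0.02 without replicate 4. No array had both probes above background in the same channel, so they cannot be compared.

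**Figure D3:**
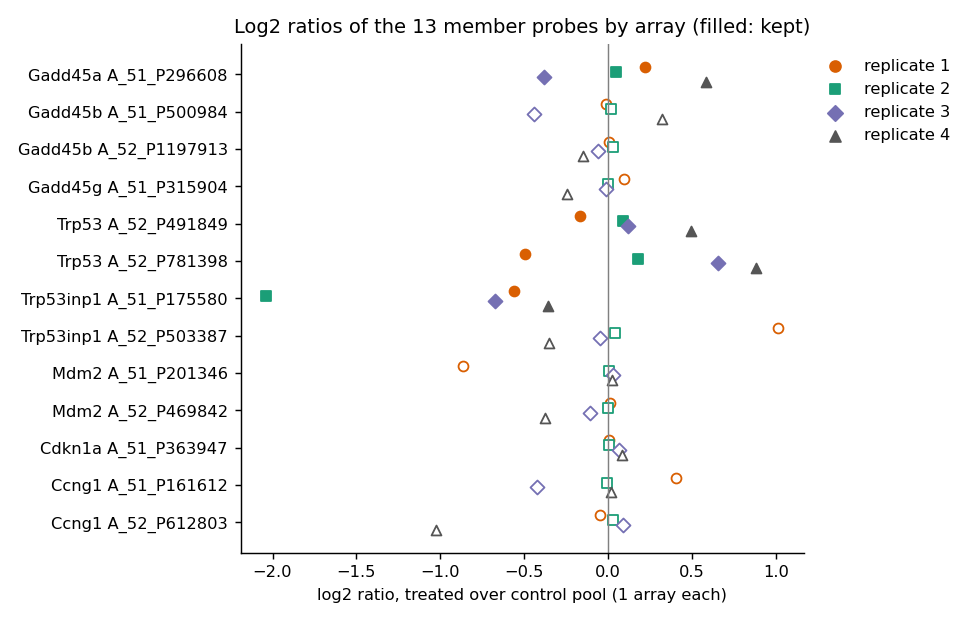
Each row is 1 of the 13 probes and each marker 1 array, with the log2 ratio of treated over control on the horizontal axis, and filled markers are the tested probes. The widest departures are -2.04 for Trp53inp1 on replicate 2, -1.02 for Ccng1 on replicate 4 and 1.01 for the repeat-containing Trp53inp1 probe on replicate 1.

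For probes that a channel never showed above background, only a rough bound can be given, from the means over arrays after loess and scaling between arrays (Aquantile). By these means the control side came out at least 1.13-fold higher for Mdm2 A_51_P201346 (mean log2 signal 6.16 in treated and 6.37 in control pools). Only 1 array, replicate 1, was above background in its control channel, and without it the mean log2 ratio was 0.02. The bound was 1.05-fold for Mdm2 A_52_P469842 (6.21 in treated and 6.33 in control pools, 2 arrays), whose mean was -0.03 without replicate 4. It was 1.18-fold for Ccng1 A_52_P612803 (6.23 in treated and 6.47 in control pools, 1 array), whose mean was 0.02 without replicate 4. Arrays at background in both channels enter these means, so the bounds do not hold for each pair of pools. They leave out the spread between arrays and are open to dye bias. Tested with no filter on dim probes, the 3 probes had an adjusted p from limma of 0.87 each, and none of the 13 probes passed.

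The probes on 10 spots allow the spread within an array to be set beside the spread between arrays. For Trp53 A_52_P491849 the SD over spots was 0.07, 0.03, 0.08 and 0.08 on replicates 1 to 4, against an SD of 0.27 over the 4 array means. All 10 spots lay below 0 on replicate 1, between -0.27 and -0.03, and all 10 lay above 0 on replicate 4, between 0.35 and 0.58. For Mdm2 A_51_P201346 the SD over spots was 0.30 on replicate 1, where the spots ran from -1.28 to -0.28, and 0.02 to 0.06 on the other arrays. Spots of 1 array share their RNA and are not replicates of the treatment.

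**Figure D4:**
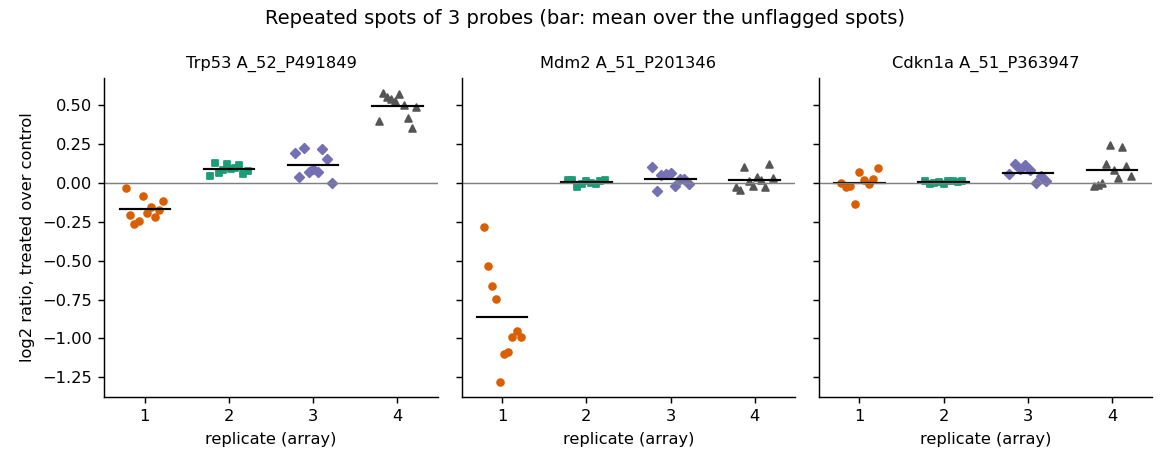
Each point is 1 unflagged spot, grouped by replicate, with its log2 ratio of treated over control on the vertical axis and a bar at the mean. The spots of Trp53 form tight groups at different heights on the 4 arrays, those of Mdm2 leave 0 on replicate 1 only, and those of Cdkn1a, whose channels were at background, stay near 0.

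The wider pathway was read through 4 lists with 95 genes, of which 93 were on the array and 44 were kept. In limma's test 0 of the 44 passed higher and 0 lower. Under an unadjusted p of 0.05 was 1 of the 44, beside 324 of all 8108 kept probes. The 1 gene was Rrm2b, a p53-induced subunit of ribonucleotide reductase, at -0.48 ± 0.18 (SE, n = 4) and below 0 on 4 of 4 arrays. It was named after its value was seen. The median over the 44 was -0.12, with 27 below 0, beside -0.02 over all kept probes, of which 4242 of 8108 were below 0. On all 4 arrays 3 of the 44 (6.82%) were below 0 and 1 (2.27%) above, against 9.18% and 3.04% of all kept probes.

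Regulators of p53 had a median log2 ratio of -0.24 over 17 kept genes, with 12 below 0 and 0 passing. The list's median was 0.32, -0.01, -0.13 and -0.54 on replicates 1 to 4, so the arrays did not share a direction. Over all arrays it was -0.11 with processed signals, -0.31 without replicate 1 and -0.75 with median centring, with 15 of 17 then below 0. Usp7, a protease that removes ubiquitin from p53 and from Mdm2, was the highest at 0.93 ± 0.40 (SE, n = 4), with -0.17, 2.17, 1.16 and 0.55 on the arrays. It did not pass (limma's adjusted p = 0.93), and was at 1.29 without replicate 1, 0.51 without replicate 2 and 0.28 with median centring. The acetyltransferase gene Crebbp was the lowest at -0.61 ± 0.42, with -0.92 without replicate 1 and -0.11 without replicate 4. Mdm4, the relative of Mdm2 that also restrains p53, had -0.32 ± 0.22.

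Targets of p53 had a median of 0.01 over 15 kept genes of 42, with 8 above 0, 7 below and 0 passing. The median turned to -0.10 without replicate 1, to -0.04 without replicate 4, to -0.06 without background subtraction, to -0.24 with median centring and to -0.56 with processed signals or the authors' values. Perp, a p53-induced membrane protein, was the highest at 0.33 ± 0.24 (SE, n = 4), and 0.17 without replicate 1. Ccng2, cyclin G2, was the lowest at -0.70 ± 0.34, with -0.62, -1.01, -1.57 and 0.39 on replicates 1 to 4, and -0.41 without replicate 3. The sestrin genes Sesn1, Sesn2 and Sesn3, whose products counter oxidative stress, had -0.14, 0.04 and 0.12. Trp53inp2, the paralog of Trp53inp1, had 0.13 ± 0.16 and was above 0 on 4 of 4 arrays.

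Partners of the GADD45 proteins had a median of -0.29 over 4 kept genes of 11. It was -0.49 without replicate 1, -0.08 without replicate 3 and -0.78 with median centring. Pcna, the sliding clamp of DNA replication, was the lowest at -0.35 ± 0.32, with -0.64 without replicate 1 and -0.11 without replicate 3. Ccnb1, cyclin B1, was the highest at 0.02 ± 0.28 (SE, n = 4). It was -0.10 without replicate 1 and -0.72 with median centring. Map3k4, the kinase that GADD45 proteins activate, had -0.25 ± 0.28, and Gadd45gip1, which binds GADD45 proteins, had -0.34 ± 0.29.

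Other inhibitors of cyclin-dependent kinases and growth-arrest genes had a median of -0.05 over 8 kept genes of 16, with 5 below 0 and 0 passing. It was -0.16 without replicate 1, -0.23 with processed signals or the authors' values and -0.29 with median centring, with 8 of 8 then below 0. It was 0.11 without replicate 4 and 0.05 when both channels had to be above background on all arrays, which left 4 genes. Tob2, an antiproliferative protein that binds deadenylases, was the highest at 0.32 ± 0.25 (SE, n = 4). It was at 0.58 without replicate 1 and -0.27 with median centring. Btg4, an oocyte member of the same family needed for clearance of maternal mRNA, was the lowest at -0.36 ± 0.29, and -0.05 without replicate 4. Cdkn1b, the p27 inhibitor, had -0.09 ± 0.17.

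**Figure D5:**
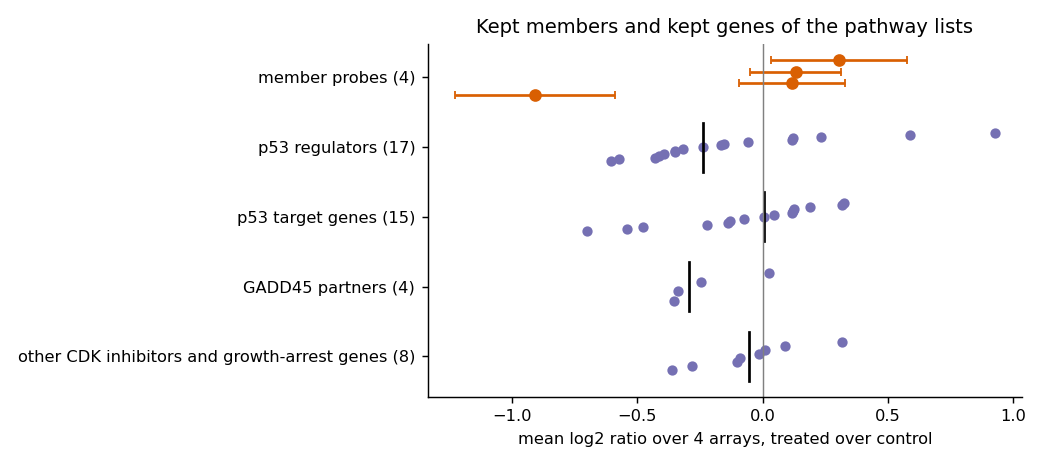
The top row shows the 4 tested member probes with their SE (n = 4) and the rows under it the kept genes of each list, 1 point a gene, with a bar at the list's median. The horizontal axis is the mean log2 ratio of treated over control, and the lists spread on both sides of 0 between -0.70 for Ccng2 and 0.93 for Usp7.

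The kept genes closest to the brightest members over the 4 arrays were found by the root-mean-square difference of their log2 ratios. For Trp53inp1 A_51_P175580, among 7235 probes, these were Noct, a phosphatase gene under circadian control (difference 0.188), Glrx5, a mitochondrial glutaredoxin (0.190), and Seh1l, a nuclear pore protein (0.290). All 3 had their lowest value on replicate 2, at -1.75, -1.80 and -2.02. For Trp53 A_52_P781398, among 7234 probes, they were Hba-a1, a haemoglobin chain (0.030), Cavin1, a caveola protein (0.058), and Arfgef3 (0.061). Hba-a1 is also on the blood marker list, and its part in the result was not tested. With 4 arrays and so many probes searched, these neighbours are given as a description only.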

How the data were processed

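RNA of oocyte pools was amplified from 240 pg of total RNA by repeated rounds and dye-labelled, as the labels' protocols state, so ratios of rare transcripts may carry amplification noise. The deposited scanner files hold mean spot and median background intensity per channel, and per the submitters' processing notes the software was Feature Extraction 9.5.1.1 of Agilent. The same files give background-subtracted, dye-normalized processed intensity and its log10 ratio of red over green, per the file headers. The authors' deposited value table equals that log10 ratio to within 5e-10 on every array. All 4 arrays lie on 1 slide.

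Intensities were corrected by normexp (offset 50) and loess within arrays in limma 3.58.1 under R 4.3.3. Control and flagged spots were dropped, spots of a probe averaged, and a probe counted as above background if a share of at least 0.5 of its spots were. Probes on build mm7 were kept with at least 3 arrays above background in 1 channel. Log2 ratios were tested against 0 with lmFit and eBayes, and p-values were Benjamini-Hochberg adjusted over the kept probes. The SE is limma's moderated one. The test was also run on simulated ratios with independent arrays. That simulation had no array running against the others, as replicate 1 did, and no result given here rests on it. The smallest two-sided p of an exact sign-flip test with 4 arrays is 0.125. The number of arrays limits the precision.

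Members and lists were chosen with earlier results of these data known. Named were all members, each list's highest and lowest kept gene, and 3 genes nearest to each of 2 members. Rrm2b, Srgn, Hsd17b1, Acta2, Tnfaip6, Mdm4, Map3k4, Gadd45gip1, the sestrins, Trp53inp2 and Cdkn1b were added after their values were seen. Of the kept probes, 5901 took a current symbol by accession, 1012 by symbol and 485 by synonym from RefSeq (GRCm38.p6, names only), and 710 kept the file's name.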

Additional observations from a re-analysis of the deposited data

Results flagged for a closer look

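A single array lay apart from the remaining 3 for 2 of the 35 probes and lists examined. The cut nominally picks out about 5% by chance. That rate need not hold for these 2 probes, which were at background on the remaining 3 arrays. The log2 ratio of Mdm2 A_51_P201346 was -0.86 on replicate 1, while replicates 2 to 4 lay between 0.003 and 0.03. Ccng1 A_52_P612803 was at -1.02 on replicate 4, and at -0.05 to 0.09 elsewhere. In both cases the control channel was above background on that array only, and the treated channel on none.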

How the results depend on the processing

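Under each of the 11 alternatives run, 0 probes were called higher or lower, and 0 members and 0 pathway genes. The lowest adjusted p from limma was 0.19 without replicate 1, and 828 probes were then under an unadjusted 0.05, against 324 in the reported setting. It was 0.30 with processed signals, with 586 such probes, and the authors' values gave 585. Counts of such probes were 1053 with no filter on dim probes, 150 with both channels required and 158 with median centring. Median centring moved the median of all kept probes to -0.32, and processed signals to -0.13. It turned Gadd45a to -0.29, Trp53 A_52_P781398 to -0.28, Cavin1 to -0.14, Perp to -0.037, Tob2 to -0.27 and Ccnb1 to -0.72. Ccnb1 was -0.027 with processed signals and with the authors' values, and leaving out 1 array gave -0.13 to 0.34 for it and -0.038 to 0.28 for Gadd45a. Trp53inp1 A_51_P175580 stayed below 0 throughout, between -1.50 and -0.53. For dim probes processed signals gave wider means, -1.06 for Mdm2 A_51_P201346 and -0.99 for Ccng1 A_52_P612803. The reported test is itself paired, since each ratio sets the pools of 1 array against each other, and no further block by replicate was added. The cause of these changes was not tested, and signal over background limits 5 of the 8 genes.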
